A study of Mus musculus with 119 samples.

Results

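The ELAV-like RNA binding proteins of the mouse are encoded by 4 genes, Elavl1, Elavl2, Elavl3 and Elavl4. They were taken by symbol, and all 4 are among the 55291 genes counted. Messenger RNA was measured in punches of 5 brain regions of female and male mice: the ventral tegmental area (VTA) of the midbrain, the amygdala (Amy), the prefrontal cortex (PFC), and, in the striatum, the nucleus accumbens (NAc) and a dorsal medial part (DMS). The mice had received THC, the main psychoactive compound of cannabis, at 10 mg/kg i.p. or its vehicle once a day from PND 28 to PND 48. The labels give the strain C57BL/6J and an age of 11 weeks for all groups, whereas the methods of the study give C57BL/6NCrl and brains taken 1 week later, and the labels call the DMS tissue dorsolateral striatum. There were 119 libraries in 20 groups, 6 in each region, sex and treatment and 5 in the VTA of vehicle-treated males. By the study's methods 1 VTA sample of a vehicle-treated male was excluded for low RNA quality. They also report that 1 male VTA sample was removed as an outlier, without naming it. All 119 libraries were used here. By the study's methods each library is 1 region of 1 mouse, and the brains came from 24 mice that had gone through behavioral tests, so libraries of different regions share mice. The labels do not identify the mice, and the region tests treat all libraries as independent, so their errors and p-values take no account of shared animals.

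ELAV-like proteins bind U-rich and AU-rich stretches of mRNAs and pre-mRNAs and change their stability, splicing and translation. Elavl1 (HuR) is made in nearly all cells and opposes the decay of many short-lived mRNAs. Elavl2 (HuB), Elavl3 (HuC) and Elavl4 (HuD) are made mainly in neurons, where they take part in differentiation, neurite growth and synaptic plasticity, and HuC and HuD are widely used as neuronal markers.

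In the GENCODE M21 annotation of GRCm38, all 4 genes lie on the minus strand. Elavl1 (ENSMUSG00000040028) is at chr8:4285382-4325413 and Elavl3 (ENSMUSG00000003410) at chr9:22015005-22052023. Elavl2 (ENSMUSG00000008489, chr4:91250763-91400785) and Elavl4 (ENSMUSG00000028546, chr4:110203722-110351909) are both on chromosome 4 and span 150023 and 148188 bases. Elavl3 overlaps Gm49318, a gene model on its own strand that reached at most 0.306 CPM (counts scaled to the size of the library) in any library. Elavl1 overlaps Ccl25 on the other strand, and that gene reached at most 11.0 CPM. Elavl3 was the only member with expected counts that were not whole numbers, in 21 libraries.

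The RefSeq promoter windows (GRCm38.p6, from 250 bases before to 50 bases after an annotated start) are shown for the 3 neuronal members because Elavl2 and Elavl4 varied together across regions while Elavl3 hardly varied. RefSeq gives 6 windows for Elavl2, 4 for Elavl4, and 1 each for Elavl3 and Elavl1. The counts per gene do not tell the starts apart. Below are the most upstream window of Elavl2 (chr4:91399935-91400234), the window of Elavl3 (chr9:22051974-22052273), and the 2 most upstream windows of Elavl4 (chr4:110351862-110352161 and chr4:110287478-110287777), all read on the minus strand, with the E-box CAGCTG in capitals.
Elavl2 upstream start: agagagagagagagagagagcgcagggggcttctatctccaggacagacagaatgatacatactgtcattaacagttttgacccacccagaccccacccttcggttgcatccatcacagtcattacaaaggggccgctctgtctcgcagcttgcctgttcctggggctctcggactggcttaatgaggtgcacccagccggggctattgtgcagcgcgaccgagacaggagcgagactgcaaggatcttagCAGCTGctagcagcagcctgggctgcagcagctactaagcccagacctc
Elavl3: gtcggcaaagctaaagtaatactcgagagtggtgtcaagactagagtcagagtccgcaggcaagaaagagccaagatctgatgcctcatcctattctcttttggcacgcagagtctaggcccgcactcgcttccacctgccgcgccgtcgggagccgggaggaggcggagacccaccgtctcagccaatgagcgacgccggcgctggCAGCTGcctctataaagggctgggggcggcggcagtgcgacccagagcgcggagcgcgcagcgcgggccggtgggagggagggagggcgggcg
Elavl4 upstream start: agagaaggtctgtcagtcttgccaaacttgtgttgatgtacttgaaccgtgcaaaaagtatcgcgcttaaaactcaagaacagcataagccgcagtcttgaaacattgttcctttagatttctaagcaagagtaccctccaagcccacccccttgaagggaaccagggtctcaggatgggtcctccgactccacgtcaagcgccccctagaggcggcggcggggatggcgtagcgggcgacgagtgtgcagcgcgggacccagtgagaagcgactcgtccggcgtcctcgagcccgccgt
Elavl4 second start: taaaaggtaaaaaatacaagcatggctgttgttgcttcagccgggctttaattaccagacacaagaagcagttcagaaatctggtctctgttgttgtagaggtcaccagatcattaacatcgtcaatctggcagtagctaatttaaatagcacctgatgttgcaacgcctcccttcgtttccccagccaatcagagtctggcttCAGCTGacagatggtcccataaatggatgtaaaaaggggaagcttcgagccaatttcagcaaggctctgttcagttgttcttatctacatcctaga
An E-box is a motif that basic helix-loop-helix factors bind. CAGCTG, which reads the same on both strands, was found in 3 of the 6 Elavl2 windows, in 2 of the 4 Elavl4 windows, in the Elavl3 window and not in the Elavl1 window. Windows 2 and 3 of Elavl2 overlap and share 1 CAGCTG, as do windows 2 and 3 of Elavl4, so these are 2 places in Elavl2 and 1 in Elavl4. The motif was in 16.3% of the 32851 mouse windows of this length. TATAAA on either strand was found in the Elavl3 window, at position -33 from the start with the E-box at -43, and in no window of the other members, against 13.6% of all windows. GGGCGG on either strand, a motif of GC-rich promoters, was found in 5 Elavl2 windows and in the Elavl3 window, and in 35.7% of all windows. Elavl2 windows 2 and 3 share 1 GGGCGG, and windows 4 to 6 overlap and share most of theirs. These 5 windows are therefore not separate places. TGACGTCA, the site of CREB family factors, was in no member window and in 1.79% of all windows. The Elavl1 window held 39 CpG dinucleotides and the Elavl3 window 29, against a median of 7 over all windows. The Elavl4 windows held 4 to 23 and the Elavl2 windows 10 to 27. These are matches of letters, and no binding was measured.

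Depth ranged from 3090998 to 77042133 counts per library with a median of 22092612. It stayed in a narrow range in the PFC and DMS and varied more in the other regions, and in the Amy the THC groups were the deeper ones in females and the shallower ones in males. The lowest counts of a member in any library were 170 for Elavl1, 446 for Elavl2, 870 for Elavl3 and 158 for Elavl4, and all 4 passed the low-count filter in each of the 35 comparisons. Marker genes matched the labelled regions, and the summed level of 5 dopaminergic markers was at least 861 CPM in each VTA library and at most 17.3 CPM in any other. In 2 Amy libraries, 1 female THC (FTL_344) and 1 male THC (FTL_356), the sex-linked genes went against the labelled sex, and the main Amy results of Elavl2 and Elavl4 are given with and without them. Without both, the 4 region pairs with the Amy had the same 9 member calls among 16 tests, a fit added after the data were seen.

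The first question was where in these circuits each member is expressed. Elavl3 was the most abundant member and nearly flat over the 5 regions, Elavl1 was nearly flat except for a lower level in the VTA, and Elavl2 and Elavl4 were high in the PFC and VTA and low in the striatum. Elavl4 differed 11.6-fold between the PFC and DMS, and Elavl2 4.38-fold between the VTA and DMS. The largest difference between regions was 1.46-fold for Elavl1 and 1.097-fold for Elavl3. Levels are CPM scaled by TMM over all libraries, given as mean ± SD over the 24 libraries of a region (23 in the VTA), and tests are edgeR quasi-likelihood tests between region means, called at a false discovery rate (FDR) under 0.05 and an absolute log2 difference of at least 0.4.

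Elavl4 had its highest level in the PFC, at 142 ± 6.32 CPM, with libraries from 127.7 to 152. The VTA followed at 109 ± 6.18 CPM (98.8 to 119), then the Amy at 72.9 ± 7.48 CPM (51.5 to 86.2). In the NAc it was 33.6 ± 9.36 CPM (16.1 to 63.4) and in the DMS 12.2 ± 4.22 CPM (8.25 to 27.1). The lowest PFC library was thus above the highest VTA library, and the lowest VTA library above the highest Amy library, while Amy and NAc libraries overlapped at their edges, as did NAc and DMS libraries. Elavl4 was called in 9 of the 10 region pairs. The exception was PFC against VTA, where the log2 difference of 0.38 ± 0.07 (SE; FDR = 3.45e-07) fell just short of the minimum size.

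Elavl2 was highest in the VTA, at 129 ± 8.69 CPM (104 to 142), ahead of the PFC at 112 ± 6.18 CPM (99.1 to 122). It was 74.3 ± 8.13 CPM in the Amy (60.7 to 89.4), 42.3 ± 12.6 CPM in the NAc (27.01 to 87.1) and 29.5 ± 1.85 CPM in the DMS (26.1 to 34.3). PFC and Amy libraries did not overlap, but 1 NAc library, from a vehicle-treated male, lay among the Amy libraries. Elavl2 was also called in 9 of the 10 pairs and not between PFC and VTA, where it was lower in the PFC by 0.20 ± 0.05 on the log2 scale (SE; FDR = 0.000298). The order of the PFC and VTA was thus opposite for Elavl2 and Elavl4.

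Elavl3 had means between 263.3 ± 13.7 CPM in the DMS and 288.9 ± 11.1 CPM in the PFC, and libraries of all regions overlapped. It was called in 0 of the 10 pairs by edgeR, and 8 of the 10 had an FDR under 0.05 with log2 differences below the minimum size. Its largest difference was 0.13 ± 0.02 (log2, PFC minus DMS), and neither PFC and VTA nor NAc and Amy could be told apart. Their 95% intervals ran from -0.03 to 0.05 and from -0.05 to 0.03. The order of the regions depends on the scaling for this gene: by the total count alone the PFC mean was the fourth highest rather than the highest.

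Elavl1 was highest in the NAc, at 65.9 ± 3.78 CPM, and lowest in the VTA, at 45.1 ± 3.03 CPM, and these were the only regions whose libraries did not overlap (59.5 to 73.2 and 37.2 to 50.7 CPM). The Amy, DMS and PFC lay between them at 61.9 ± 4.69, 57.5 ± 3.47 and 57.2 ± 3.05 CPM. It was called in 2 pairs, NAc against VTA (log2 difference 0.55 ± 0.03) and Amy against VTA (0.46 ± 0.03). DMS and PFC did not differ detectably (interval -0.06 to 0.04), and DMS against VTA, 0.36 ± 0.03, fell short of the minimum size except in the vehicle libraries alone, at 0.41 ± 0.04.

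**Figure D1:**
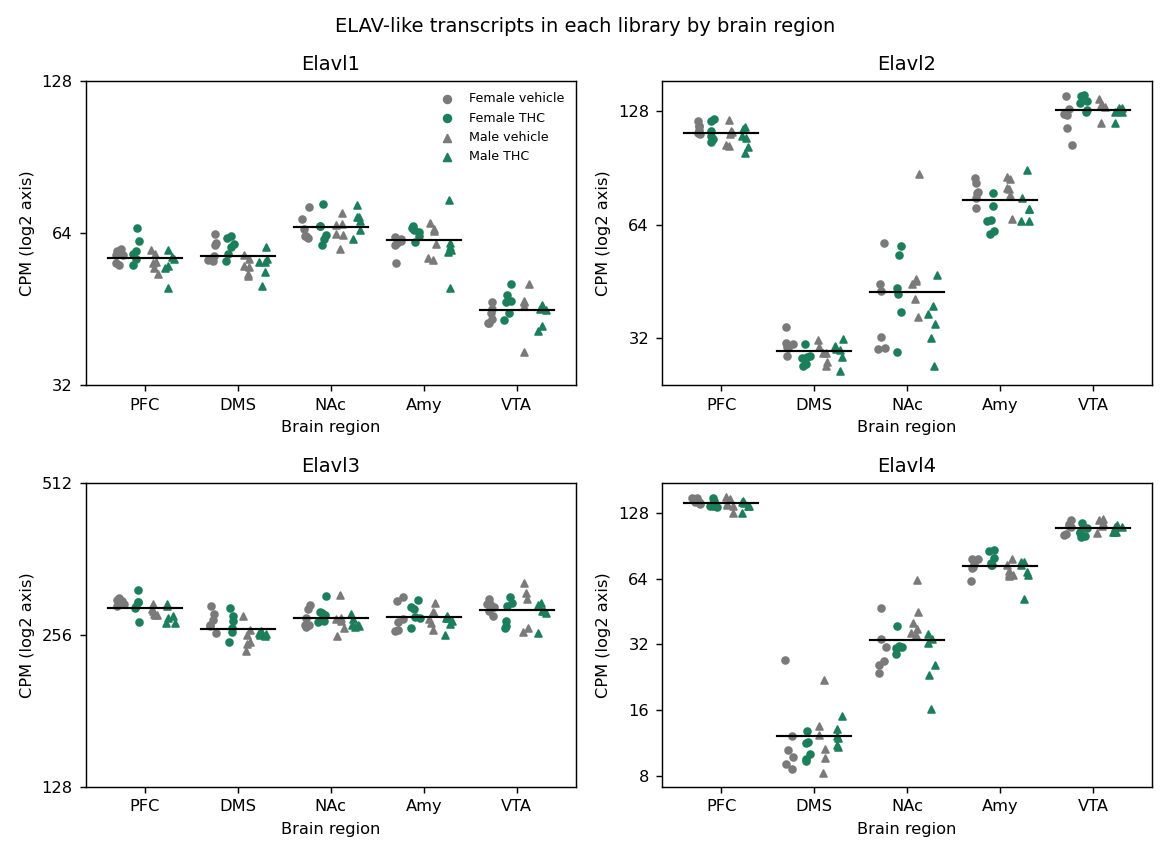
CPM on log2 axes of each of the 4 genes in every library, by brain region, with circles for females, triangles for males, grey for vehicle, green for THC and a line at the mean of each region. Elavl4 goes from a mean of 12.2 CPM in the DMS to 142 in the PFC, whereas the Elavl3 means stay between 263.3 and 288.9 CPM.

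These counts stand against a large background, since many genes differ between brain regions. The share of the 18932 tested genes that was called was 50.8% for PFC against DMS, 47.1% for PFC against NAc, 37.7% for PFC against Amy, 56.6% for PFC against VTA and 33.5% for DMS against NAc. It was 44.9% for DMS against Amy, 58.9% for DMS against VTA, 27.5% for NAc against Amy, 54.7% for NAc against VTA and 46.3% for Amy against VTA. At an FDR under 0.05 with no minimum size the shares, in the same order of pairs, were 81.8%, 80.2%, 75.1%, 84.1%, 72.2%, 78.5%, 85.2%, 67.1%, 84.2% and 79.7%. A call between 2 regions is therefore common, and 20 of the 40 member tests were called. The PFC and DMS were deposited in 1 table and the other 3 regions in another, so in the 6 pairs that cross the tables a difference between regions and one between tables cannot be told apart. In the pairs within a table, fits of each table on its own made the same number of member calls in each pair. The summed CPM of 10 neuronal markers also differed by region, from 10661 to 11599 in the PFC and from 4589 to 5819 in the DMS, with 5121 to 8126 in the other regions, and its part in the results was not tested. In bulk tissue, fewer cells that express a gene and less RNA per cell cannot be told apart.

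Because a longer transcript gives more reads, levels of different genes were compared as CPM per kb of the union of annotated exons, which is 10.4 kb for Elavl1, 8.31 kb for Elavl2, 6.89 kb for Elavl3 and 5.39 kb for Elavl4. These annotated lengths do not account for which isoforms the tissue uses. In the PFC the levels were 41.9 ± 1.62 CPM per kb for Elavl3, 26.3 ± 1.17 for Elavl4, 13.5 ± 0.743 for Elavl2 and 5.52 ± 0.295 for Elavl1. In the DMS the order of the other members turned over, with Elavl1 at 5.55 ± 0.335, Elavl2 at 3.55 ± 0.222 and Elavl4 at 2.26 ± 0.784 CPM per kb, under Elavl3 at 38.2 ± 1.99. Elavl3 thus made up 48.1% ± 1.21 of the summed CPM per kb of the 4 genes in the PFC and 77.1% ± 1.38 in the DMS. In the VTA its share was 50.9% ± 1.41, and the Amy (58.6% ± 2.06) and NAc (69.5% ± 3.45) lay between these regions. Elavl4 went from 30.1% ± 0.869 in the PFC to 4.55% ± 1.42 in the DMS, and Elavl2 from 19.0% ± 1.09 in the VTA to 7.16% ± 0.412 in the DMS. The summed level of the family was 87.3 ± 2.85 CPM per kb in the PFC and 49.6 ± 2.43 in the DMS.

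**Figure D2:**
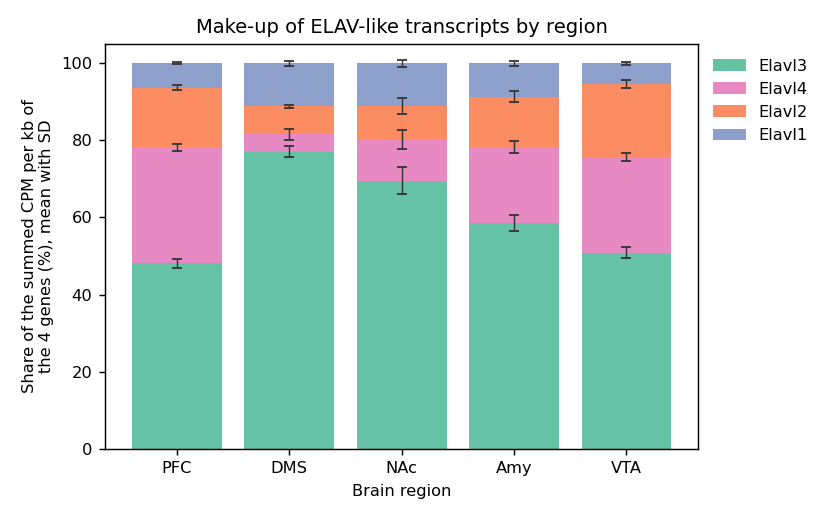
Share of each gene in the summed CPM per kb of the 4 genes, in percent, by brain region, as stacked bars of the mean with the SD over libraries. The Elavl3 share is 77.1% in the DMS and 48.1% in the PFC, and the Elavl4 share moves the other way, from 4.55% to 30.1%.

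The ratio of Elavl2 to Elavl4 within a library, as log2 of CPM, also differed between regions. It was -0.34 ± 0.06 in the PFC, with all libraries below 0, 0.24 ± 0.11 in the VTA, with all libraries above 0, and 1.33 ± 0.40 in the DMS, where the lowest library, at 0.30, was below the highest VTA library. In the NAc (0.33 ± 0.22) and Amy (0.03 ± 0.21) it went from below 0 to above 0 among the libraries. These ratios take no account of gene length, so 0 does not mark equal levels. Per kb, mean Elavl4 was above mean Elavl2 in the VTA, at 20.2 and 15.5 CPM per kb. The same held in the Amy (13.5 and 8.94), the NAc (6.24 and 5.09) and the PFC. Only in the DMS was mean Elavl2 the higher per kb. Over the 119 libraries log2 CPM of Elavl2 and Elavl4 had a Pearson r of 0.95, and after subtracting the mean of each group 0.50. Within a region the r was 0.84 in the NAc and 0.73 in the PFC, but 0.33 in the VTA, 0.11 in the Amy and 0.04 in the DMS. For Elavl1 and Elavl3 r was -0.10 over all libraries and 0.23 after subtracting group means, with 0.54 in the NAc, 0.49 in the PFC and 0.37 in the DMS. Over all libraries r was 0.56 for Elavl3 and Elavl4 and 0.52 for Elavl2 and Elavl3, and after subtracting group means 0.09 and -0.05. These correlations describe libraries that share regions and scaling, and most of the first one is the difference between regions.

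The genes most like each member were found by Pearson r of log2 CPM over the 119 libraries, among 11945 other genes with a mean of at least 5 CPM. For Elavl4 they were Syt13 (r = 0.99), Fam155a, Rassf5, Efr3a and Kcna6 (r = 0.98), and for Elavl2 Nrip3 (r = 0.98), Mturn, Cadps, Mfsd6 and Bend6 (r = 0.97). For Elavl1 they were Cacna1e (r = 0.90), Pds5b, Ice1, Ets2 and Supt6. No gene reached such values for Elavl3, whose nearest were Marf1 (r = 0.67), Zmat3, Tom1l2, Tnpo2 and Mark4. After the group means were subtracted, the nearest genes were Gng2 (r = 0.84), Adgra1, Gnas, Mast1 and Stmn2 for Elavl4, and Nrip3 (r = 0.74), Tmem65, Klhl1, Smim17 and Shh for Elavl2. For Elavl1 they included Gatad2b (r = 0.66), Ptprj, Cbx5 and Grin2b, and for Elavl3 they were Cacng2 (r = 0.62), Mapt, Syt11, Tmem151a and Atg9a. Nrip3 was thus the nearest gene to Elavl2 on both scales. By Spearman's rho 0 to 3 of the 5 names were shared with these lists, so the exact names depend on the measure.

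The second question was whether adolescent THC changed the members. None of the 4 was called in any of the 10 region-by-sex comparisons of THC with vehicle (0 of 40 tests by edgeR, and 0 by DESeq2, which gave no adjusted p for 2 of the 40, Elavl2 and Elavl4 in the male NAc), 3 of the 40 had an unadjusted p under 0.05 by edgeR and 4 by DESeq2, and the smallest FDR by edgeR was 0.0776. In the same comparisons edgeR called 1.57% of genes in the female Amy, 0.0127% in the female DMS and 0% in the other 8. The 3 edgeR tests with such a p were Elavl2 in the female Amy and female DMS and Elavl4 in the male NAc. Over all genes it was held there by 3724 of 17003, 1406 of 15800 and 2653 of 15932. Among the comparisons where no member had it, the counts included 1421 of 15747 in the female VTA and 648 of 15936 in the male PFC. For Elavl1 all 10 log2 differences lay between -0.03 and 0.08, and for Elavl3 between -0.05 and 0.03. All 20 of their 95% intervals lay within 0.4 of 0. Of the 20 intervals of Elavl2 and Elavl4, 15 lay within 0.4 of 0, and the other 5 were all in the NAc and DMS. The values of THC and vehicle libraries overlapped for each member in each comparison.

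**Figure D3:**
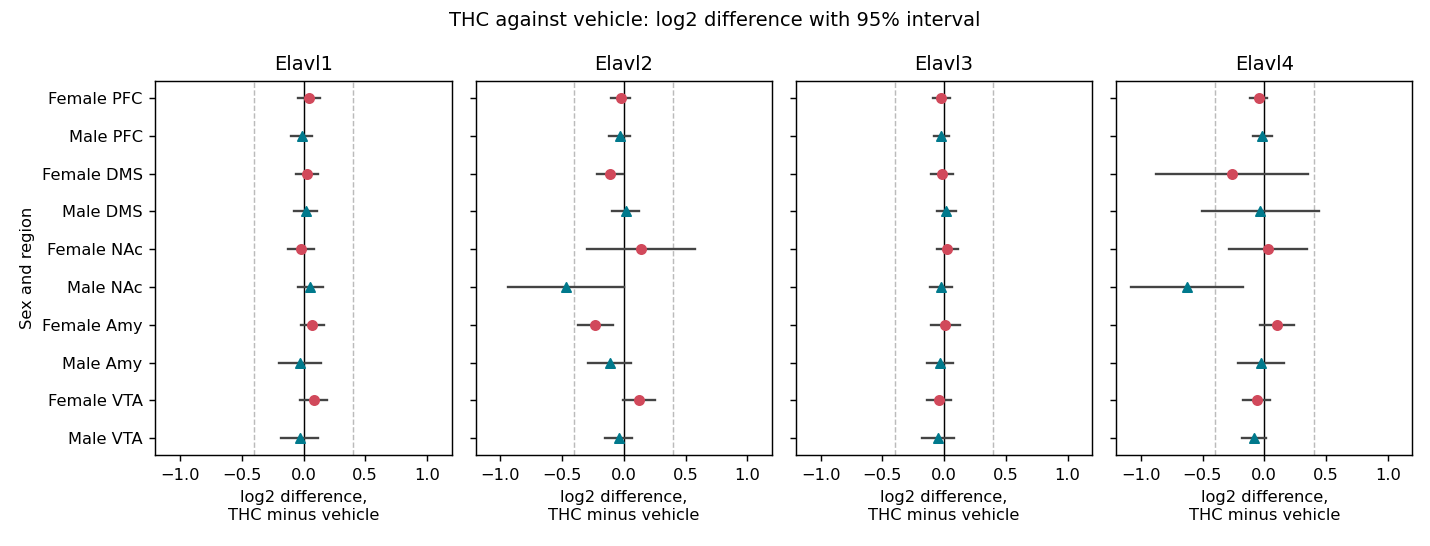
Log2 difference of THC minus vehicle (horizontal axis) for each gene in the 10 comparisons (vertical axis), with 95% intervals as lines, circles for females, triangles for males and dashed lines at the minimum size for a call, 0.4. None is called, and the points farthest from 0 are Elavl4 (-0.62) and Elavl2 (-0.47) in the male NAc.

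Elavl4 in the male NAc had the largest difference. Vehicle libraries went from 35.3 over a median of 38.8 to 63.4 CPM, and THC libraries from 16.1 over a median of 29.1 to 35.9 CPM. Of the 6 THC libraries 5 were below the lowest vehicle library. The log2 difference was -0.62 ± 0.21 (SE, n = 6 and 6; 95% interval -1.08 to -0.17; edgeR, FDR = 0.216) and was not called. Without vehicle library FTL_325, which had the highest value, it was -0.47 (FDR = 0.411). Without THC library FTL_331, which had the lowest, it was -0.50 (FDR = 0.413).

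Elavl2 in the same mice went from 36.4 over a median of 44.9 to 87.1 CPM with vehicle and from 27.01 over a median of 36.1 to 47.0 CPM with THC. The vehicle maximum was again FTL_325, and the next library had 45.8 CPM. The log2 difference of -0.47 ± 0.21 (SE, n = 6 and 6; 95% interval -0.94 to 0.00395; edgeR, FDR = 0.304) was -0.23 without that library (FDR = 0.490). In the female NAc the differences were 0.14 ± 0.20 for Elavl2 and 0.03 ± 0.14 for Elavl4. The sex x treatment interaction in the NAc, the male minus the female difference, was -0.60 ± 0.30 for Elavl2 (FDR = 0.466) and -0.66 ± 0.26 for Elavl4 (FDR = 0.401), so the sexes were not shown to differ.

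Among NAc libraries Elavl4 went down as the markers of medium spiny neurons, the main neurons of the striatum, went up. The summed CPM of the 6 markers, none of which was at 0, was 1735 in FTL_325, the library with the most Elavl4, and 3704 in FTL_331, the library with the least. Over the 24 NAc libraries r was -0.89 and rho -0.79 on log2 scales (permutation p = 1e-05, the smallest the permutations could give, and 2e-05, and 0.00012 and 0.00024 when adjusted over the 12 relations computed). Without the 2 libraries farthest from the median r was -0.79, and after subtracting group means -0.86. For Elavl2 r was -0.69 and rho -0.50 (permutation p = 0.00029 and 0.013, adjusted 0.00087 and 0.032), with -0.43 without the 2 farthest. Elavl2 went more closely with the 10 general neuronal markers, with r = 0.72 and rho = 0.62 (permutation p = 8e-05 and 0.0015, adjusted 0.00044 and 0.006), 0.55 without the 2 farthest and 0.74 after subtracting group means. For Elavl4 and these markers r was 0.45 and rho 0.32 (permutation p = 0.031 and 0.13, adjusted 0.047 and 0.19). With the cortical markers neither gene had an adjusted p under 0.05 in the NAc. Within single groups of 6 libraries the relation of Elavl2 to the medium spiny markers was not uniform, at r = 0.58 in THC-treated females and -0.96 in vehicle-treated females, whereas for Elavl4 all 4 groups were negative, from -0.34 to -0.96. These relations were chosen after the data were seen. The permutations, here and in the DMS, ran over all 24 libraries of a region regardless of sex and treatment. Their p-values therefore do not separate a relation within groups from differences between groups.

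**Figure D4:**
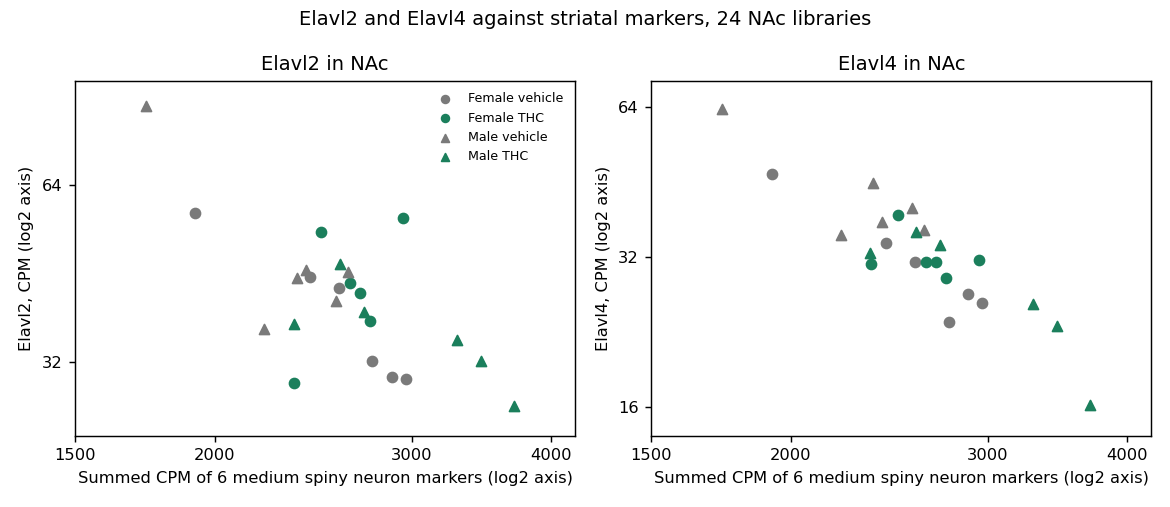
CPM of Elavl2 (left) and Elavl4 (right) in the 24 NAc libraries against the summed CPM of 6 medium spiny neuron markers, all on log2 axes, with symbols by sex and treatment. Elavl4 falls along the marker axis from 63.4 to 16.1 CPM (r = -0.89), and Elavl2 follows less closely (r = -0.69).

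In males the marker sum moved with treatment, from 1735 to 2629 CPM with vehicle (median 2390) and from 2354 to 3704 CPM with THC (median 3006). The summed CPM of 9 markers of hypothalamus and medial amygdala did not overlap between the male groups. It went from 15.3 to 43.4 CPM with vehicle and from 5.93 to 13.9 CPM with THC. Most of the 9 were near 0, with 6 at a mean under 1 CPM with vehicle and 7 with THC. With THC 1 was at 0 in every library. The highest of the 9 over all NAc libraries were Slc17a6, at a mean of 8.93 CPM, and Trh, at 3.75 CPM. In the female NAc the ranges of the medium spiny markers were 1922 to 2965 and 2357 to 2949 CPM. When the mean log2 CPM of these markers was added as a covariate, a fit chosen after the data were seen, the male THC difference was -0.13 ± 0.12 for Elavl4 and 0.000332 ± 0.19 for Elavl2. With 1 surrogate variable it was -0.13 ± 0.10 and 0.03 ± 0.16. The score correlated with treatment in these males (r = 0.63 over 12 libraries), so the fits cannot tell apart a change of the members and a change in the make-up of the punches.

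The DMS showed the same direction for Elavl4. Of the 24 libraries 22 had 8.25 to 15.04 CPM, and the other 2 were vehicle libraries, FTL_285 (female) at 27.1 and FTL_301 (male) at 22.0 CPM. FTL_301 had the lowest sum of the medium spiny markers, 4300 CPM, with 3.1 CPM over 5 markers of cortical and basolateral projection neurons. FTL_285 had 5345 CPM and a cortical sum of 262.1 CPM, against at most 23.8 CPM in the other DMS libraries. Over the 24 libraries the relation of Elavl4 to the medium spiny markers had r = -0.75 and rho = -0.64 (permutation p = 0.00011 and 0.0011, adjusted 0.00044 and 0.006) and -0.71 without the 2 farthest. That to the cortical markers had r = 0.60 but rho = 0.01. It had r = -0.24 without the 2 libraries farthest from the median, so the positive r rests on the libraries left out there. Within the vehicle-treated females, which include FTL_285, r was 0.96. Within the vehicle-treated males, which include FTL_301, it was -0.18. Elavl4 and the general neuronal markers had r = -0.12 and rho = -0.53 (permutation p = 0.58 and 0.0079, adjusted 0.59 and 0.024). Elavl2 in the DMS had r = 0.53 and rho = 0.43 with the general neuronal markers (permutation p = 0.0071 and 0.037, adjusted 0.017 and 0.074) and 0.25 without the 2 farthest. With the cortical markers Elavl2 had r = 0.52 and rho = 0.33 (permutation p = 0.011 and 0.11, adjusted 0.022 and 0.19) and 0.06 without the 2 farthest. Both relations were thus weaker without the 2 libraries farthest in each. After subtracting group means r of Elavl2 was 0.57 with the general neuronal markers and 0.50 with the cortical markers. With the medium spiny markers r was 0.11 and rho 0.09 (permutation p = 0.59 and 0.69, adjusted 0.59 and 0.75).

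The DMS comparisons of Elavl4 depended on FTL_285 and FTL_301. In females the log2 difference of THC minus vehicle was -0.26 ± 0.28 (edgeR, FDR = 0.819) and 0.11 without FTL_285. In males it was -0.03 ± 0.22 and 0.20 without FTL_301. With the medium spiny marker score as a covariate the values were -0.32 ± 0.14 in females (FDR = 0.271) and 0.08 ± 0.09 in males. Elavl2 in the female DMS was 28.5 ± 1.38 CPM with THC and 30.9 ± 1.86 with vehicle, a log2 difference of -0.11 ± 0.05 (edgeR, FDR = 0.534).

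In the female Amy, Elavl2 had the smallest FDR of the 40 tests. Vehicle libraries went from 71.0 over a median of 78.1 to 85.3 CPM, and THC libraries from 60.7 over a median of 65.7 to 77.6 CPM, with 4 of the 6 THC libraries below the lowest vehicle library. The log2 difference was -0.23 ± 0.07 (SE, n = 6 and 6; 95% interval -0.37 to -0.09; edgeR, FDR = 0.0776). By DESeq2 it was -0.22 with an FDR of 0.0332, and without library FTL_344 -0.22 with an FDR of 0.149 by edgeR. Leaving out 1 library at a time gave -0.29 to -0.20, with an FDR of 0.0233 without vehicle library FTL_338 and 0.0363 without THC library FTL_341. None of these values reaches the minimum size of a call. In the male Amy the values were 78.9 ± 6.90 CPM with vehicle and 72.8 ± 8.94 with THC (log2 difference -0.11 ± 0.08, and -0.12 ± 0.09 without FTL_356). The interaction was 0.12 ± 0.11 (edgeR, FDR = 0.588), and 0.10 ± 0.12 without both libraries. Elavl4 in the female Amy did not go with Elavl2: it was 73.2 ± 5.94 CPM with vehicle and 79.1 ± 5.65 with THC, a log2 difference of 0.10 ± 0.06 (edgeR, FDR = 0.346), and 0.12 ± 0.07 without FTL_344.

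**Figure D5:**
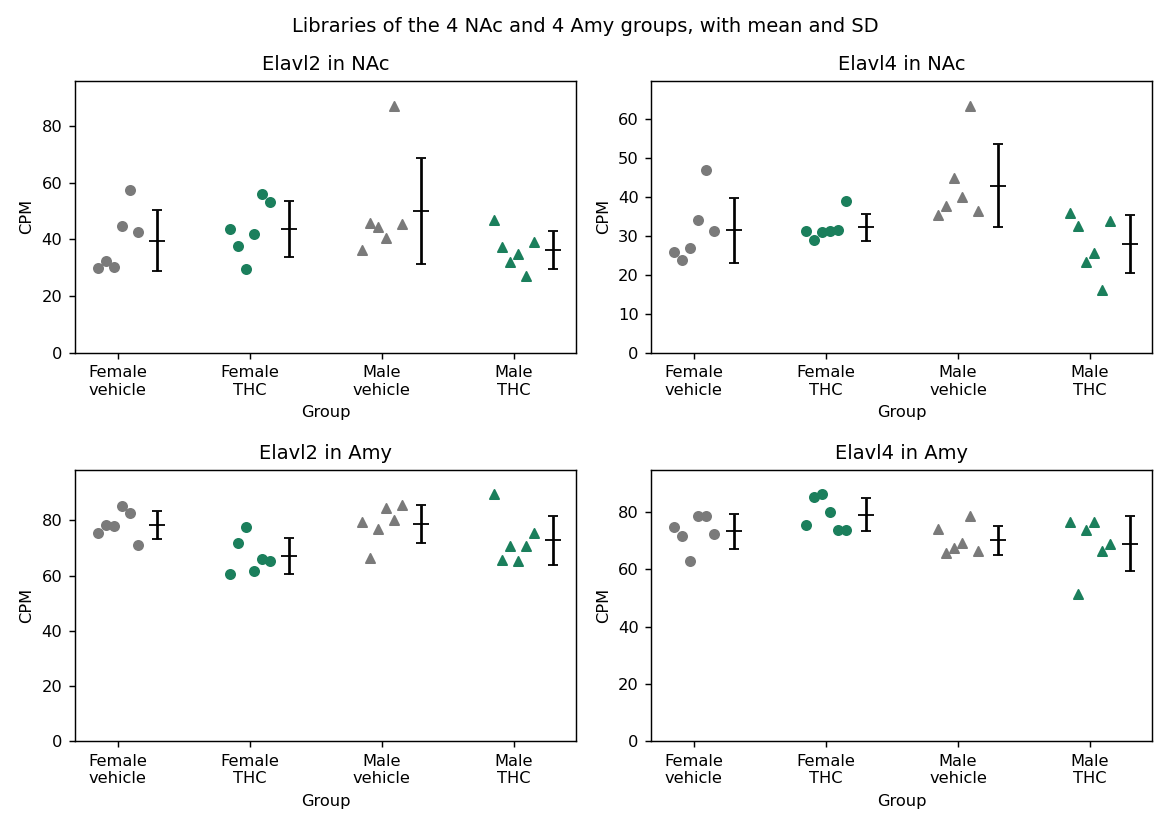
CPM of Elavl2 and Elavl4 in each library of the 4 NAc groups (top) and the 4 Amy groups (bottom), with the mean and SD beside the points. Female Amy Elavl2 is 78.5 CPM with vehicle and 67.2 with THC, and male NAc Elavl4 is 42.9 with vehicle and 27.9 with THC, with overlapping libraries in both.

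The female Amy groups also differed in regional markers. The summed level of the 5 cortical and basolateral projection neuron markers was 498 to 740 CPM with vehicle and 788 to 1130 with THC, with no overlap. The 9 hypothalamic and medial amygdala markers summed to 43.4 to 120 CPM with vehicle and 31.3 to 72.9 with THC. None was at 0 in every library of either group, but 3 had a mean under 1 CPM with vehicle and 4 with THC. The 10 neuronal markers summed to 5213 to 6641 and 6483 to 7446 CPM. In the male Amy the cortical sums overlapped, at 328.5 to 791 and 361.4 to 1224 CPM. With the cortical score as a covariate, chosen after the data were seen, the female Elavl2 difference was -0.28 ± 0.14 and that of Elavl4 -0.07 ± 0.12. The score correlated with treatment at r = 0.87 over these 12 libraries, so its part in the result could not be separated.

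With both sexes in 1 fit and sex as a covariate, 0 of the 20 member tests of THC were called by edgeR and 0 by DESeq2, which gave no adjusted p for 3 of them (2 at an unadjusted p under 0.05 by edgeR, 3 by DESeq2), and edgeR called 0% of all genes in each region. The largest was Elavl4 in the NAc, -0.29 ± 0.15 (FDR = 0.507). Elavl2 in the Amy was -0.17 ± 0.05 (FDR = 0.671), and -0.17 ± 0.06 without FTL_344 and FTL_356. The interaction tests called 0 of 20, with 2 at an unadjusted p under 0.05 by edgeR and 3 by DESeq2, against 0.0059% of genes in the Amy and 0% elsewhere. Over all genes such an edgeR p was held by 965 of 16451 in the PFC to 2675 of 16956 in the Amy. In the both-sex fits this ran from 791 of 16451 in the PFC to 1711 of 16773 in the NAc.

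Sex itself, with treatment as a covariate, gave 0 of 20 member calls by edgeR and 0 by DESeq2 (6 and 5 at an unadjusted p under 0.05). Over all genes edgeR gave such a p to 4622 of 16605 in the DMS, 2686 of 16451 in the PFC and 2748 of 16773 in the NAc. The counts were 1027 of 16956 in the Amy and 1214 of 16881 in the VTA. The share of all genes called was highest in the DMS at 2.64% and otherwise 0.237% (PFC), 0.25% (NAc), 0.0118% (Amy) and 0.113% (VTA). Elavl1 in the DMS was lower in males by a small amount, with 55.0 ± 2.01 and 55.5 ± 3.33 CPM in the vehicle and THC males and 59.4 ± 2.94 and 60.2 ± 2.57 CPM in the females. The log2 difference was -0.10 ± 0.03 (male minus female, edgeR, FDR = 0.0276), below the minimum size, and 10.9% of genes in the DMS had an FDR under 0.05. Elavl3 in the DMS was -0.07 ± 0.03 (FDR = 0.0947), and all 20 differences lay between -0.13 and 0.14. The lowest, Elavl4 in the Amy at -0.13 ± 0.06, was also -0.13 ± 0.06 without FTL_344 and FTL_356.

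Genes of related function, on lists that leave out the 4 members, gave the setting of these values. The lists hold 10 binders of AU-rich elements such as the Zfp36 decay factors, 20 neuronal splicing regulators such as the Nova, Rbfox and Celf families, and 13 factors of translation and mRNA transport such as Fmr1 and the Cpeb family. A further list holds 15 mRNAs named from general knowledge as targets of ELAV-like proteins, and no binding was measured here. Nova1 is on both the splicing and the target list. In the 10 comparisons of THC with vehicle, 0 of 100, 0 of 200 and 0 of 130 tests of the first 3 lists were called by edgeR. Of the 148 tests of the target list 2 were called, both higher in the female Amy: Satb1, a chromatin organizer, by 0.55 ± 0.11 (log2; FDR = 0.0204), and Camk2a, a kinase of synaptic plasticity, by 0.47 ± 0.10 (FDR = 0.0304). That comparison called 2 of the 15 targets and 1.57% of all genes. The cortical and basolateral markers were also higher with THC there, as given above. With their score as a covariate 0 genes of the whole table were called, but the score correlated with treatment at r = 0.87. That fit therefore cannot separate treatment from the markers. No gene of the 4 lists was called in the interaction, both-sex or male against female fits.

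Between regions the splicing regulators were called in 13 to 17 of 20 in the pairs with the VTA and in 6 to 10 of 20 in the other pairs. The share of all genes called was also higher in the pairs with the VTA, from 46.3% to 58.9%, than in most others, from 27.5% to 50.8%. For PFC against VTA 13 of the 20 were higher and 4 lower in the PFC, with a median log2 difference of 0.65 against -0.04 over all genes tested. Celf5 had 275.8 CPM in the PFC and 51.9 in the VTA, and Rbfox3, which encodes the neuronal marker NeuN, 305.8 and 89.7 CPM. Of the 10 AU-rich element binders 1 was higher and 3 lower in the PFC than in the VTA, and 5 were higher and 3 lower in the DMS than in the VTA. Among the target mRNAs, Nrn1, which encodes neuritin, was 230 CPM in the PFC and 2.08 in the DMS. Bdnf was 25.1 and 0.379 CPM, and Satb1 133 and 20.9 CPM. The 5 region means of each stood in the same order as those of Elavl4, as did those of Mapt. Other targets went against this order. Ache was lowest in the PFC and highest in the VTA, and Camk2a was lowest in the VTA. Marcks was highest in the NAc and Cdkn1a in the DMS. Whether the list as a whole follows Elavl4 across regions was not tested. Gap43, the growth-associated protein by which HuD targeting is best known, went from 288.1 CPM in the PFC to 306.6 in the DMS and 505 in the Amy. Of the 15 targets 8 were higher and 1 lower in the PFC than in the DMS, with a median log2 difference of 0.48 against -0.04 over all genes, where 50.8% of all genes were called. In the DMS against the NAc 1 was higher and 6 lower, beside 33.5% of all genes.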

How the data were processed

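Expression of the 4 members was measured by RNA sequencing of polyadenylated RNA in 119 libraries. Per the labels and methods, reads were trimmed with cutadapt 2.9, aligned to mm10 with STAR 2.7.3a and counted with RSEM 1.3.1. The deposited unit is the RSEM expected count per gene, which the authors left unnormalized, in 2 tables that differ by region (48 libraries of the PFC and DMS, 71 of the NAc, Amy and VTA). RSEM can split a read between genes, and counts that were not whole were seen for Elavl3 alone. The gene annotation used and whether strand was used in counting are not given in the sources used here. Unused per-library columns number 0, and no 2 libraries were identical.

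Expected counts were rounded to whole numbers and tested with edgeR 4.0.16 in R 4.3.3 (its low-count filter, TMM, robust quasi-likelihood F test), with P-values adjusted by Benjamini-Hochberg over all genes tested. THC was compared with vehicle within the 12 (or 11) libraries of a region and sex. Interaction, both-sex and sex effects used the libraries of a region, and region pairs used all 119 libraries with 20 group means. By the study's methods the libraries of a group are from different mice, and those of different regions share mice that the labels do not identify, so region tests had no block for the mouse. Levels are CPM after TMM, with a prior count of 2 on the log2 scale. Exon lengths and coordinates are from GENCODE M21, promoters from RefSeq. The scripts were tested on simulated data. Alternatives were DESeq2 1.42.0, its size factors in edgeR, no filter, no minimum size, 1 surrogate variable (sva 3.50.0), all 4 groups of a region in 1 fit, each library left out, vehicle libraries only, each table on its own, total-count CPM and Spearman's rho. The marker covariates and the 12 marker relations, with 100000 permutations each, and the region pairs without FTL_344 and FTL_356 were added after the data were seen. Named genes are the 4 members, the 5 genes most like each on either scale, and genes of the RNA binding and target lists called within a region and sex, at most 5 a list, and 1 of these genes is not reported here. The list genes named with levels or order by region were chosen after their values were seen. The members and lists were chosen with earlier results of these data known.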

Additional observations from a re-analysis of the deposited data

Results flagged for a closer look

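Each member was checked in each of the 20 groups for a single library far from the others of its group (Dixon's ratio above its 95% critical value), and 7 of the 80 checks were flagged, where chance flags about 1 in 20. Elavl4 was highest at 27.1 CPM in FTL_285 of the vehicle-treated female DMS, with the next library at 12.2 CPM. In FTL_325 of the vehicle-treated male NAc Elavl4 was 63.4 CPM (next 44.9 CPM) and Elavl2 87.1 CPM (next 45.8 CPM). Elavl4 was 38.9 CPM in FTL_320 of the THC-treated female NAc, against 31.6 CPM in the next library. In the THC-treated male VTA, FTL_376 was lowest for both Elavl2 at 119 CPM (next 127 CPM) and Elavl3 at 258 CPM (next 282.6 CPM). Elavl1 was lowest at 55.7 CPM in FTL_338 of the vehicle-treated female Amy, where the next library had 60.6 CPM. In FTL_325 the summed medium spiny neuron markers, at 1735 CPM, were the lowest of the 24 NAc libraries, and in FTL_285 the cortical projection neuron markers, at 262.1 CPM, were the highest of the 24 DMS libraries.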

How the results depend on the processing

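No paired analysis was possible because no 2 groups share a replicate number. None of the 4 members was called in any THC, interaction or both-sex fit under any alternative run. By DESeq2, however, 2 THC tests (Elavl2 and Elavl4 in the male NAc) and 3 both-sex tests had no adjusted p. Those tests could not be called by it. The values of members that changed sign were all uncalled. With 1 surrogate variable these were, for THC minus vehicle on the log2 scale, Elavl2 (0.019) and Elavl4 (0.024) in the male PFC, Elavl1 (0.0011) and Elavl4 (-0.027) in the female NAc, and Elavl2 (0.030) and Elavl3 (0.031) in the male NAc. With the medium spiny marker covariate they were Elavl4 in the male DMS (0.077) and Elavl2 (0.00033) and Elavl3 (0.0035) in the male NAc, and with the cortical covariate Elavl1 (-0.024) and Elavl4 (-0.075) in the female Amy. Both covariates were chosen after the data were seen. The Elavl3 interaction in the PFC was 0.00051 with DESeq2 size factors and 5.0e-05 by DESeq2, Elavl1 over both sexes in the Amy -0.0084 without FTL_344 and FTL_356, and Elavl3 between sexes in the VTA 0.0070 with no filter. Between regions, Elavl1 for PFC minus DMS was 0.0088 with each table on its own and Elavl3 for PFC minus VTA -0.0034 in vehicle libraries. Elavl3 for NAc minus Amy was 0.011 with DESeq2 size factors and by DESeq2, 0.030 in vehicle libraries and 0.042 with each table on its own. The cause of these changes was not tested.

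Leaving out 1 library at a time gave THC differences in males from -0.038 to 0.012 for Elavl1 and -0.040 to 0.0081 for Elavl4 in the PFC. In the male DMS they ran from -0.0080 to 0.043 for Elavl1, -0.0078 to 0.048 for Elavl2 and -0.13 to 0.20 for Elavl4. In the female DMS they ran from -0.038 to 0.00040 for Elavl3 and -0.35 to 0.11 for Elavl4. In the female NAc they ran from -0.058 to 0.011 for Elavl1, -3.6e-05 to 0.042 for Elavl3 and -0.032 to 0.17 for Elavl4, and in the male NAc from -0.046 to 0.0078 for Elavl3. In the Amy they ran from -0.020 to 0.039 for Elavl3 in females and, in males, from -0.092 to 0.019 for Elavl1 and -0.059 to 0.044 for Elavl4. In the male VTA Elavl1 ran from -0.096 to 0.0067. For Elavl3 in the VTA the interaction ran from -0.034 to 0.035 and the male minus female difference from -0.022 to 0.0095, and PFC minus VTA from -0.00063 to 0.019.

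With no minimum size, 1 member was called between sexes in the DMS, beside 10.9% of all genes. Between regions this gave 37 calls in the 40 member tests. All 4 members were called in each pair except PFC against DMS, PFC against VTA and NAc against Amy, with 3 each. The share of all genes called by this rule was 67.1% (NAc against Amy) to 85.2% (DMS against VTA), so such calls are common. By the total count alone the PFC means were 52.8 CPM for Elavl1, 103.7 for Elavl2, 267.1 for Elavl3 and 131.0 for Elavl4.

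Over all genes in the female Amy, 1.57% of 17003 were called, against counts of 544 by DESeq2, 462 with no minimum size, 126 with 4 groups in 1 fit, 159 without FTL_344, 0 with the cortical covariate and 56, 58 and 60 without FTL_342, FTL_339 and FTL_335. In the female DMS 2 were called, against 24 by DESeq2, 39 with the medium spiny covariate and 0 to 7 when 1 library was left out. DESeq2 called 5 in the male NAc and 6 in the female VTA, where edgeR called 0. The interaction in the Amy had 1 by edgeR and 28 by DESeq2. Between sexes in the DMS 438 were called and 1807 with no minimum size. The limits on these values are the 5 or 6 libraries per group and the depth of the shallowest library, 3090998 counts.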
